A study of Mus musculus with 9 samples.

Results

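The vitamin A handling genes Rbp2, Lrat, Bcmo1, Aldh1a1, Rara, Rxra and Rarb (7 genes) were followed through 9 arrays of mouse jejunum. The genes were taken by symbol, so that every probe carrying 1 of the 7 symbols as a name was included, whatever its signal. They make up 7 of the 15674 gene entries with a symbol and 9 of the 33012 probes on each array, with 1 probe each for Rbp2, Lrat, Bcmo1, Aldh1a1 and Rara and 2 probes each for Rxra and Rarb. The arrays are single-colour chemiluminescence arrays (Applied Biosystems), and each was hybridized with labelled cDNA made from total RNA of 1 mouse. All mice were males of the outbred stock OF1, aged 7 weeks, of generation 3 of a feeding trial in which a diet called feed B, feed K or feed G was given over the generations, with 3 mice per feed. The mice had free access to feed and water under a 12 h light and 12 h dark cycle. Food was withheld before sampling. At what hour each mouse was sampled is unknown, and the feeds may differ in it. The study addressed a custom maize diet, and which of the letters stands for it is not given in the sources used here, so that feed B, from which differences are mostly given, is not known to be a control. A short segment around the midpoint of the small intestine was sampled, and the values are those of the whole wall. In such bulk tissue, fewer cells of a type and less RNA per cell cannot be told apart.

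Vitamin A reaches the small intestine as retinyl esters and as carotenoids. In the enterocyte, carotenoids are cleaved to retinal, retinol is held by a small binding protein and esterified, and the esters leave the cell in chylomicrons. A part of the retinal is oxidized to retinoic acid, which acts through nuclear receptors that bind DNA as pairs at repeated half-sites, with a role in the intestine in lymphocyte homing and in limiting carotenoid uptake. Of the genes followed here, Bcmo1 (Bco1 in current nomenclature) encodes the oxygenase that cleaves beta-carotene. Rbp2 encodes the cellular retinol-binding protein of absorptive enterocytes, and Lrat the lecithin:retinol acyltransferase that makes retinyl esters. Aldh1a1 encodes a retinal dehydrogenase that makes retinoic acid. Rara and Rarb encode retinoic acid receptors, and Rxra encodes the retinoid X receptor with which they pair.

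In RefSeq (GRCm38.p6), Rbp2 lies on chromosome 9 (98490537 to 98509771), Lrat on chromosome 3 (82892582 to 82903974) and Bco1 on chromosome 8 (117095851 to 117133720). Aldh1a1 lies on chromosome 19 (20492583 to 20643463), Rara on chromosome 11 (98927800 to 98974942), Rxra on chromosome 2 (27676445 to 27763319) and Rarb on chromosome 14 (16430839 to 17082331). The 12 RefSeq promoter windows of the 7 genes, each running from 250 bases before a transcription start to 50 bases after it, were searched on both strands for direct repeats of a receptor half-site. The search took AGGTCA as the main half-site, and GGGTCA was allowed as a variant of it. The half-site AGTTCA, along with the variant GGTTCA, was allowed as well. Any pair of half-sites in the same orientation with 1, 2 or 5 bases between them was counted. Direct repeats of this kind are the textbook binding pattern of retinoid receptor pairs. Matches were found in the windows of Bco1 and Rarb, and both are shown. These 2 genes were also not detected on any array, and a link between a match and detection was not tested. The half-sites are in capitals.
Bco1 (GRCm38.p6, chr8:117095801-117095829, minus strand): tgtgtgttAGGTCAaAGGTCAgttcccaa
Rarb (GRCm38.p6, chr14:16575507-16575535, minus strand): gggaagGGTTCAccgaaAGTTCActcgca
The Bco1 match has a spacer of 1 base and is read on the strand opposite to the gene. The Rarb match has a spacer of 5 bases and is read on the strand of the gene. Among all 32851 mouse promoter windows of this length, 0.222% held a repeat with a spacer of 1 base, 0.268% one with a spacer of 2 bases and 0.0974% one with a spacer of 5 bases. No such repeat was found in the windows of the other 5 genes, which says only that these letters are not in those windows. A match is a description of the letters, depends on which half-sites were allowed and was not tested for binding. The shares over all windows are given for scale and are no test of the 2 matches.

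The arrays differed from each other in ways that bear on the values below. A spot was taken as detected from a signal-to-noise ratio of 3 upwards, which 33.7% to 48.1% of the probes of an array reached, with 33.7% to 43.6% on feed B, 41.2% to 47.6% on feed K and 46.4% to 48.1% on feed G. Vil1 and Fabp2, which mark enterocytes, were detected on all 9 arrays, as were all 5 enterocyte markers with a probe. Fabp6, the ileal bile acid binding protein, had log2 signals of 15.81, 17.84 and 19.51 in mice 7 and 10 of feed B and mouse 11 of feed G, compared with 4.67 to 12.19 in the other 6 mice. Gata4, a transcription factor of the proximal small intestine, had log2 signals of 8.87 to 9.96 on feed B, 10.18 to 10.46 on feed K and 8.57 to 9.33 on feed G. The proximal markers did not share a direction, since Slc40a1, the iron exporter ferroportin, had 9.92 to 10.17 on feed B, 9.39 to 9.50 on feed K and 9.62 to 10.43 on feed G. Hsd17b6 had 12.40 to 13.11 on feed B, 12.70 to 12.80 on feed K and 11.61 to 11.99 on feed G. Fabp1 had 17.85, 17.50 and 16.40 in the 3 mice of high Fabp6, in the same order, and 18.00 to 19.35 in the other 6 mice. All 8 tested genes of a list of circadian clock and clock output genes had an unadjusted p of the limma F test below 0.05. Such a p was found for 5.37% of all genes tested, and the list was chosen with earlier results of these data known. The summed normalized signal of the list, in which bright genes weigh most, was 6916 to 12239 on feed B, 14000.5 to 21976 on feed K and 18559 to 26519 on feed G. Its genes did not share a direction. Dbp had log2 signals of 9.98 to 12.46 on feed B, 12.69 to 13.57 on feed K and 12.73 to 13.99 on feed G. Nfil3 went down, with 9.85 to 10.23, 9.41 to 9.57 and 8.77 to 9.02, as did Arntl. An unadjusted p below 0.05 was also found for 3 of 4 tested proximal markers, 1 of 5 enterocyte markers and 1 of 4 macrophage and dendritic cell markers, and for none of the ileal, pancreas, smooth muscle, adipocyte, fibroblast, B cell, T cell and liver markers tested. The part of intestinal position and of sampling hour in the differences below was not tested.

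Detection on all 9 arrays was found for 5 of the 7 genes, and Bcmo1 and Rarb were detected on none. The signal-to-noise ratio of Rbp2 was 48.4 to 130 and that of Aldh1a1 was 43.7 to 96.2. It was 6.24 to 25.7 for Rara and 4.8 to 12.7 for Lrat. The 2 probes of Rxra had ratios of 29.6 to 97.0 and of 7.34 to 34.2. All of these spots thus stood above the detection level, with the smallest margin for Lrat in mouse 1 of feed K. The ratio of the Bcmo1 probe was between -2.39 and 2.53. The probes of Rarb had ratios of -2.90 to -0.92 and of -4.59 to -0.22, and the spot of the latter probe in mouse 10 of feed B carried a failed quality flag and was left out. Below a ratio of 1 the deposited signal is equal to the standard deviation of the spot, so the values of Rarb and part of those of Bcmo1 are measures of noise, and no fold change is given for these 2 genes. A probe that is not detected says only that its signal did not stand above background.

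**Figure D1:**
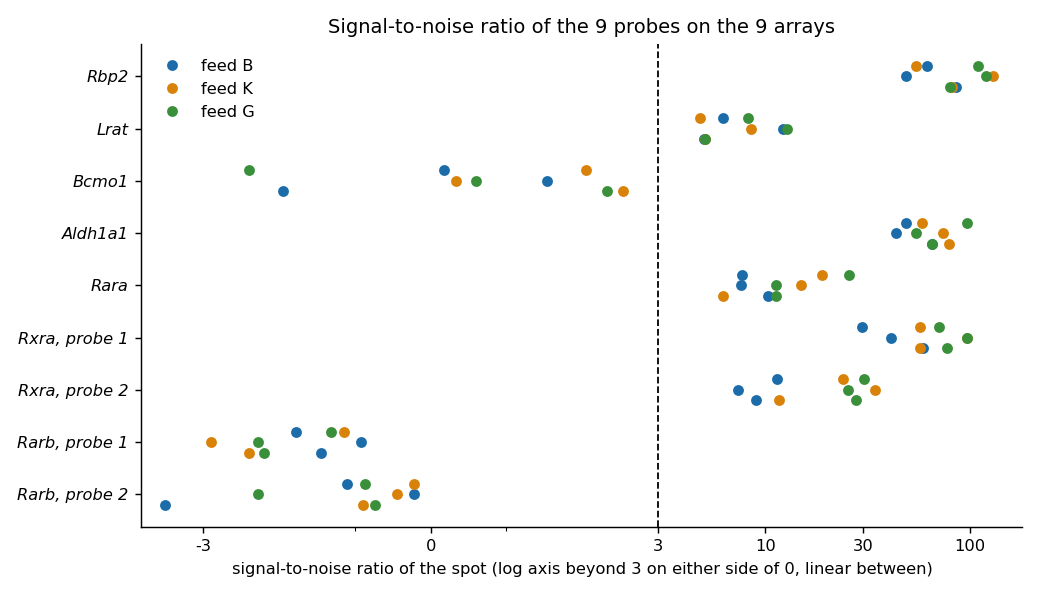
Signal-to-noise ratio (horizontal axis) of each of the 9 probes on the 9 arrays, with 1 point per mouse coloured by feed and the detection level of 3 as a dashed line. All spots of Rbp2, Lrat, Aldh1a1, Rara and Rxra lie to the right of the line and all spots of Bcmo1 and Rarb lie to the left of it.

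Rbp2, the retinol-binding protein of absorptive cells, had log2 signals of 15.95, 17.38 and 16.51 in mice 7, 8 and 10 of feed B. They were 17.02, 16.91 and 17.60 in mice 1, 3 and 4 of feed K and 16.74, 16.68 and 16.92 in mice 4, 8 and 11 of feed G. The lowest and the second highest value both came from feed B, and the 3 mice of feed G fell within the range of feed B. The feed means were 16.61 ± 0.72 on feed B, 17.18 ± 0.37 on feed K and 16.78 ± 0.13 on feed G (SD, n = 3 each). The highest mean was 1.48-fold above the lowest, with a 95% interval of the limma fit from 0.831 to 2.63. This difference, 0.56 on the log2 scale, was 0.23 without mouse 7 of feed B, 0.95 without mouse 8 of feed B and 0.35 without mouse 4 of feed K. Both mice of feed B with high Fabp6 were the 2 lowest of all 9 in Rbp2, whereas mouse 11 of feed G, with the highest Fabp6, was the highest of its feed. Without the 3 mice of high Fabp6, which leaves 1 mouse on feed B whose spread is assumed to be that of the others, the difference between feed K and feed B turned from 0.56 to -0.21 on the log2 scale. The difference between feed G and feed B turned likewise, from 0.17 to -0.67, with limma adjusted p-values of 0.853 and 0.501.

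Lrat, the retinol-esterifying enzyme, had log2 signals of 9.44, 9.49 and 8.88 on feed B, 7.48, 8.62 and 8.72 on feed K and 9.26, 9.10 and 8.42 on feed G, in the same order of mice. The 3 mice of feed K were all below the 3 mice of feed B, and feed G overlapped with both. The means were 9.27 ± 0.34, 8.27 ± 0.69 and 8.93 ± 0.45 (SD, n = 3 each). Feed K was lower than feed B by 1.99-fold (95% interval 1.08 to 3.68), with an SE of 0.39 on the log2 scale. Limma gave an unadjusted p of 0.0320 for this difference and an adjusted p of 0.784, so that it did not pass the threshold. The lowest value, of mouse 1 on feed K, weighed most in the difference, which was -0.60 without that mouse. Lrat had the lowest ratios of signal to noise among the detected genes, and the SD of its spot was 7.85% to 20.8% of the signal, compared with 0.770% to 2.07% for Rbp2. This is the error within a spot and not that between mice.

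Aldh1a1, which encodes the retinal dehydrogenase, had log2 signals of 15.16, 15.87 and 14.78 on feed B. The values were 14.01, 14.59 and 15.20 on feed K and 15.11, 14.18 and 14.89 on feed G. The feeds overlapped in every pair, and both the lowest values on feeds K and G were below all values of feed B. With means of 15.27 ± 0.56, 14.60 ± 0.60 and 14.73 ± 0.49 (SD, n = 3 each), feed B was the highest, and feed K differed from it by -0.67 on the log2 scale (SE 0.41) and feed G by -0.55 (SE 0.41). The limma adjusted p-values were 0.836 and 0.892. Without the 3 mice of high Fabp6 these differences were -1.27 and -1.23, with limma adjusted p-values of 0.471 and 0.479. They were smaller elsewhere, at -0.33 and -0.017 with median scaled arrays, -0.37 and -0.24 without mouse 8 of feed B, and the difference of feed G was -0.23 in the series table. Without mouse 1 of feed K that of feed K was -0.38, and without mouse 8 of feed G that of feed G was -0.27.

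**Figure D2:**
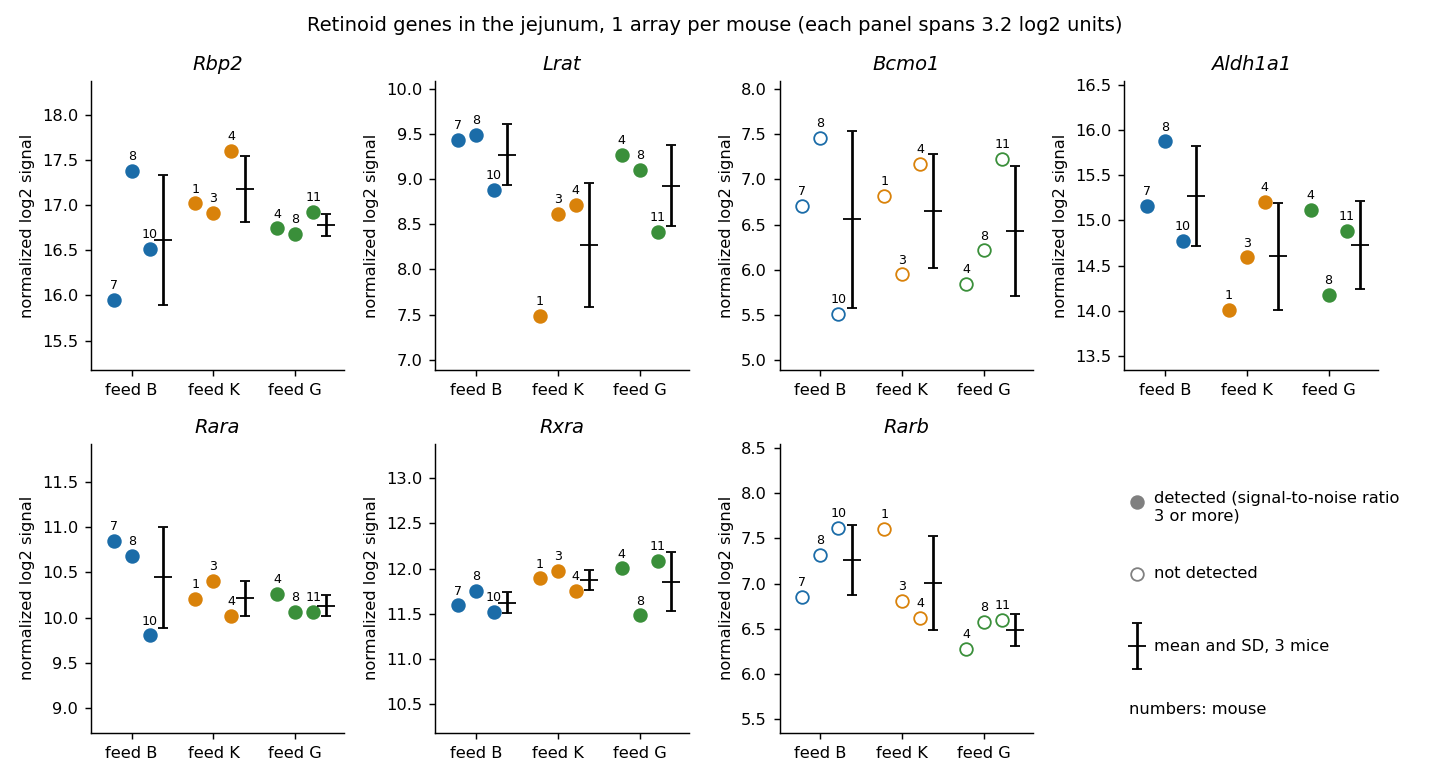
Quantile normalized log2 signal (vertical axis, with the same span in each panel) of the 7 genes by feed, with 1 point per mouse, filled where the gene was detected and open where it was not, and with bars for the mean and SD of 3 mice. For Lrat the mice of feed K lie at 7.48 to 8.72, below the 8.88 to 9.49 of feed B, while for Rxra they lie at 11.76 to 11.97, above the 11.52 to 11.75 of feed B.

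Among the receptors, Rxra had log2 signals of 11.59, 11.75 and 11.52 on feed B, 11.89, 11.97 and 11.76 on feed K and 12.00, 11.48 and 12.08 on feed G. All mice of feed K were above all mice of feed B, by a narrow margin between 11.75 and 11.76, and feed G spanned both. The means were 11.62 ± 0.12, 11.87 ± 0.11 and 11.85 ± 0.33 (SD, n = 3 each). The fold of feed K over feed B was 1.19 (95% interval 0.856 to 1.66; limma adjusted p = 0.881). A 2-fold change in either direction lies outside this interval. The 2 probes of Rxra had a Pearson r of 0.74 over the 9 mice, and the dimmer of them had the larger SD over the mice, with 0.33 compared with 0.14 on the log2 scale.

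Rara had log2 signals of 10.84, 10.69 and 9.80 on feed B, 10.21, 10.41 and 10.02 on feed K and 10.26, 10.07 and 10.07 on feed G. Feed B held the 2 highest values and the lowest value of the 9. The means were 10.44 ± 0.56, 10.21 ± 0.19 and 10.13 ± 0.11 (SD, n = 3 each). The lowest value was that of mouse 10 of feed B. Without this mouse, feed K differed from feed B by -0.55 and feed G by -0.63 on the log2 scale, compared with -0.23 and -0.31 with all mice, and the smallest limma adjusted p of these 2 differences was 0.315. Rarb, the other retinoic acid receptor followed here, had values of 6.28 to 7.62 over the 9 mice, and Bcmo1 had values of 5.52 to 7.46. For Rarb the mice of feed G were below those of the other feeds, but none of these values stood above background, and the 2 probes of Rarb did not follow each other (Pearson r of -0.21 over 8 mice).

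Of the 5 genes that could be tested, none passed the limma threshold of an adjusted p below 0.05 in the F test over the feeds or in any pair of feeds. Over all 9650 genes tested the share was 0% in each of these comparisons. The members' adjusted p in the F test was 0.903 to 0.918, and their smallest unadjusted p was 0.0823, for Lrat. At an unadjusted p below 0.05, 1 of 5 was found between feeds K and B (Lrat; 6.31% of all genes tested), and 0 of 5 in the F test (5.37% of all genes), between feeds G and B (5.74%) and between feeds G and K (4.54%). An ordinary analysis of variance per gene over the feeds called 0 of 5 after adjustment in each comparison, and its unadjusted count between feeds K and B was 0. The values of 2 of 5 genes, Lrat and Rxra, did not overlap between feeds K and B, beside 9.99% of all genes tested. In the other pairs the count was 0 of 5, beside 11% of all genes between feeds G and B and 13.7% between feeds G and K. In each pair 2 of the 5 genes had a higher and 3 a lower mean. The median log2 difference of the 5 was -0.23 between feeds K and B (K minus B), -0.31 between G and B (G minus B) and -0.02 between G and K (G minus K), compared with 0.05, 0.06 and -0.01 for all genes tested. These pairs share arrays and are not independent. A difference that misses the threshold is not shown to be absent, and the interval for Lrat, for example, reached from 1.08-fold to 3.68-fold.

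**Figure D3:**
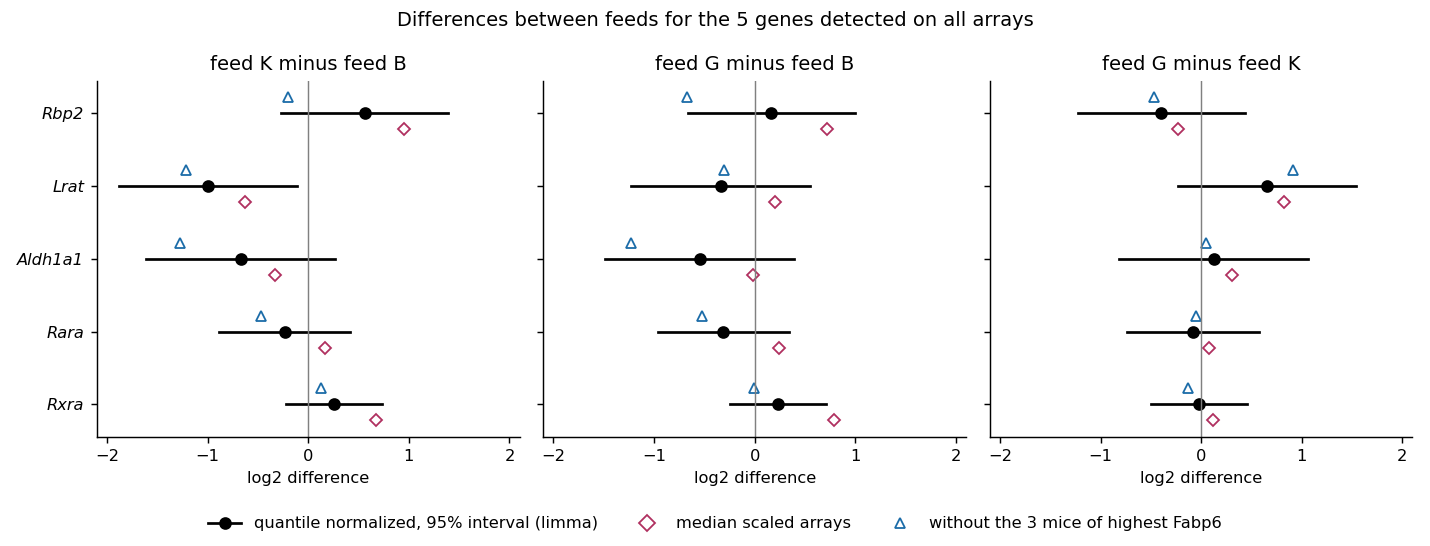
Log2 difference between feeds (horizontal axis) for the 5 detected genes, with circles and lines for the limma estimate and its 95% interval on quantile normalized values, diamonds for median scaled arrays and triangles for the fit without the 3 mice of highest Fabp6. Only the interval of Lrat for feed K minus feed B, from -1.88 to -0.11, leaves out 0. In the differences from feed B, the triangles rest on mouse 8 alone on that feed.

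Some of the directions depended on the scaling of the arrays. With each array divided by its median instead of quantile normalized, the median of all genes tested was shifted by 0.41 between feeds K and B and by 0.53 between feeds G and B on the log2 scale. On that scale Lrat was 0.63 lower on feed K than on feed B, Aldh1a1 0.33 lower and Rxra 0.67 higher. Against the direction given above, Rara on feed B was exceeded by 0.17 on feed K and by 0.25 on feed G, and Lrat by 0.20 on feed G. Compared with the median gene on that scale, Rara was lower in both pairs, as was Lrat. Rbp2, at 0.95 for feed K minus feed B, stood above it. In the series table the median gene was also shifted, by 0.21 between feeds K and B and by 0.30 between feeds G and B. What the shift comes from was not tested.

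The genes differed in how much they varied from mouse to mouse. Over the 9 mice, the highest signal of Lrat was 4.01-fold its lowest, that of Aldh1a1 3.64-fold and that of Rbp2 3.14-fold. The SD of log2 signal was 0.62, 0.57 and 0.48 for these genes of retinol esterification, retinal oxidation and retinol binding. It was 0.33 for Rara and 0.22 for Rxra, with ranges of 2.06-fold and 1.51-fold. Among the 5887 genes detected on all 9 arrays, the median SD was 0.29 and the median range was 1.85-fold, and 57.9% of these genes stayed within a range of 2-fold. The SD of Lrat stood at percentile 91.7 of these genes, that of Aldh1a1 at 89.0, that of Rbp2 at 82.3, that of Rara at 59.3 and that of Rxra at 27.5. Within feeds, the pooled SD was 0.51 for Lrat, 0.55 for Aldh1a1, 0.47 for Rbp2, 0.35 for Rara and 0.21 for Rxra. For Lrat this was lower than the 0.62 over all mice, while for the other genes it was close to the SD over all mice. Without the 3 mice of high Fabp6, the range of Rbp2 was 1.89-fold, whereas Lrat and Aldh1a1 kept ranges of 4.01-fold and 3.64-fold over the other 6 mice.

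The genes were also compared with each other across mice, as 10 pairs of the 5 detected genes. Lrat and Aldh1a1 had the highest correlation, with a Pearson r of 0.68 (exact permutation p = 0.0449, Benjamini-Hochberg adjusted 0.449) and a Spearman rho of 0.63 (exact permutation p = 0.0760, adjusted 0.674). Without the 2 mice farthest from the median of Lrat, r was 0.15. Leaving out mice in this way moved other pairs as well, such as Rbp2 and Rara from -0.24 to 0.87. After the mean of each feed was subtracted, r was 0.59, and with median scaled arrays it was 0.43. Mouse 1 of feed K was the lowest of 9 in both genes and mouse 8 of feed B the highest in both. No other pair had an unadjusted p below 0.05, none passed after adjustment, and 7 of the 10 values of r were above 0. Rbp2 and Aldh1a1 had an r of 0.22 over all mice and of 0.64 after feed means were subtracted, and Rbp2 and Lrat had -0.28 and 0.15. All values come from the same arrays and share their normalization.

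**Figure D4:**
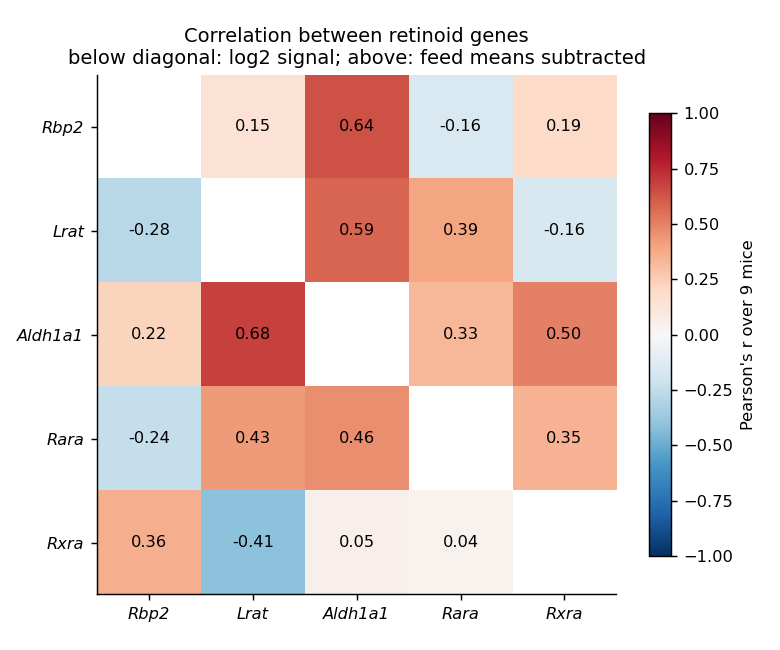
Pearson correlation over 9 mice between the 5 detected genes, with r of the log2 signal below the diagonal and r after subtraction of the feed means above it. Lrat and Aldh1a1 have the highest value below the diagonal (0.68), and Rbp2 and Aldh1a1 the highest above it (0.64).

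Among the genes detected on all arrays, those with the pattern most like each member were named from Pearson's r of log2 signal over the 9 mice, as a description. For Rbp2 these were 4632413K17Rik (Os9 in current nomenclature), Creb3l3 and Hars, with r of 0.97, 0.97 and 0.96. Creb3l3 encodes a membrane-bound transcription factor of hepatocytes and enterocytes, and Hars a transfer RNA synthetase. For Lrat they were Olfr154, Gadd45b and 1500010M16Rik (Eif1b), with r of 0.93, 0.90 and 0.90. The genes most like Aldh1a1 were Ebpl, Otx3 (Dmbx1) and Ptpra, with r of 0.90, 0.89 and 0.88. Cgb (not matched to a current symbol), Commd5 and Blvrb were the closest to Rara, with r of 0.93, 0.92 and 0.92, and Mtrr, Dci (Eci1) and Sh3gl1 the closest to Rxra, with r of 0.90, 0.90 and 0.88. The genes most like each member were thus different for each of the 5 members, and no member was among the 3 closest of another.

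The 7 genes were set beside a wider list of 81 other genes of retinoid metabolism and signalling. The list was chosen with earlier results of these data known, so its shares beside those of all genes are a description and not a test. Of the 81 genes, 75 had a probe, 41 were detected on all 9 arrays, 57 could be tested and 8 were detected on none. None passed the limma threshold after adjustment in the F test or in any pair of feeds, and the smallest adjusted p of the F test was 0.847. At an unadjusted p below 0.05, 5 of 57 (8.77%) were found in the F test, beside 5.37% of all genes tested. Between feeds K and B the count was 10 of 57 (17.5%), 4 higher and 6 lower, beside 6.31% of all genes. It was 4 without mouse 7 of feed B, beside 453 of 9650 genes. Without mouse 1 of feed K it was also 4, beside 405 genes, and with median scaling 13, beside 1230 genes. Between feeds G and B the count was 5 of 57 (8.77%), 4 higher and 1 lower, beside 5.74%. Between feeds G and K it was 0 of 57, beside 4.54%. Rdh13, detected on no array of feed B, is among the genes counted in the F test and as higher in both pairs with feed B. The median log2 difference of the 57 genes was -0.03, -0.09 and -0.03 in the order K minus B, G minus B and G minus K. By role, 15 of the 19 genes of retinol and retinal interconversion with a probe were detected on all arrays, as were 3 of 4 for esterification, 3 of 8 binding proteins, 8 of 13 receptors and partners and 3 of 8 known retinoic acid targets.

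Of the proteins that bind retinoids inside cells, the retinoic acid binding protein Crabp2 was among the 10 genes of the wider list with the smallest p of the F test. It had log2 signals of 10.94, 10.22 and 10.01 on feed B, 9.05, 9.68 and 9.95 on feed K and 10.13, 10.08 and 9.97 on feed G, and all mice of feed K were below all of feed B. Feeds K and B did not overlap, in either direction, for 9.99% of all genes tested. As Crabp2 was named for its small p, this separation is no further support. The log2 difference between feeds K and B was -0.83 (SE 0.31). Lrat likewise had a lower mean on feed K than on feed B, and neither gene passed the adjusted threshold.

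Of the enzymes, Cyp26b1, which inactivates retinoic acid, had a log2 difference of -1.01 (SE 0.32) for feed K minus feed B, and Akr1b8, an aldo-keto reductase that acts on retinal, of -0.95 (SE 0.32). Cyp26b1 was detected on 7 of 9 arrays, but not in mouse 8 of feed B or mouse 4 of feed K. Its values were 9.38, 9.13 and 9.05 on feed B, 8.78, 8.32 and 7.45 on feed K and 8.91, 8.68 and 8.87 on feed G. Both other feeds were thus below feed B without overlap on quantile normalized values. Such a lack of overlap was found for 9.99% of all genes tested with feed K and 11% with feed G. It goes with the small p for which Cyp26b1 was named. With median scaled arrays the differences of Cyp26b1 were -0.55 on feed K and 0.18 on feed G. In the series table they were -0.80 and -0.034. Dgat2, an acyltransferase of triglyceride synthesis that can also esterify retinol, had log2 differences of 0.66 (SE 0.27) for feed K and 0.73 (SE 0.27) for feed G against feed B, and they were 0.36 and 0.43 without mouse 7 of feed B. Rdh13, a retinol dehydrogenase, was detected on no array of feed B and on 2 each of feeds K and G, so that it entered the test through feeds K and G alone. It is counted among the genes above, and no difference is given for it. For Cyp2s1, a cytochrome P450 that acts on retinoic acid, the values were 0.37 and 0.52 (SE 0.19), and for Lipe, a lipase that hydrolyses retinyl esters, 1.11 and 0.40 (SE 0.43). Without mouse 8 of feed B those of Lipe were 0.68 and -0.032, and without the 3 mice of high Fabp6 they were 1.96 and 1.16. The latter are differences from mouse 8 alone on feed B, in which Lipe was not detected. Lipe was detected in 2 of the 3 mice of feed B. The difference of Cyp26b1 was -0.64 without mouse 4 of feed K, and that of Akr1b8 was -0.25 without the 3 mice of high Fabp6. The latter again rests on mouse 8 alone on feed B, the lowest of its feed in Akr1b8.

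Of the receptors and their partners, Pparg, which binds DNA together with the protein of Rxra, had the smallest p of the F test in the wider list (unadjusted 0.0183, limma adjusted 0.847). Its log2 signals were 7.18, 7.87 and 8.49 on feed B, 8.97, 8.79 and 9.36 on feed K and 8.50, 9.32 and 9.35 on feed G, so all mice of feeds K and G were above those of feed B. It was detected on 2 of 3 arrays of feed B and on all others. The log2 differences were 1.19 and 1.21 (SE 0.38). Ncor1, a corepressor bound by retinoic acid receptors without ligand, was lower than on feed B by log2 differences of -0.43 on feed K and -0.55 on feed G (SE 0.17), also without overlap, and with a limma adjusted p of 0.894 in the F test. With median scaled arrays its differences were 0.0076 and -0.0070, on a scale where the median gene was shifted upwards as given above. These values have feed B in common and are not independent of each other. Of all genes tested, 9.99% did not overlap between feeds K and B and 11% between feeds G and B. Pparg and Ncor1 were named for their small p, so their lack of overlap is no further support.

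**Figure D5:**
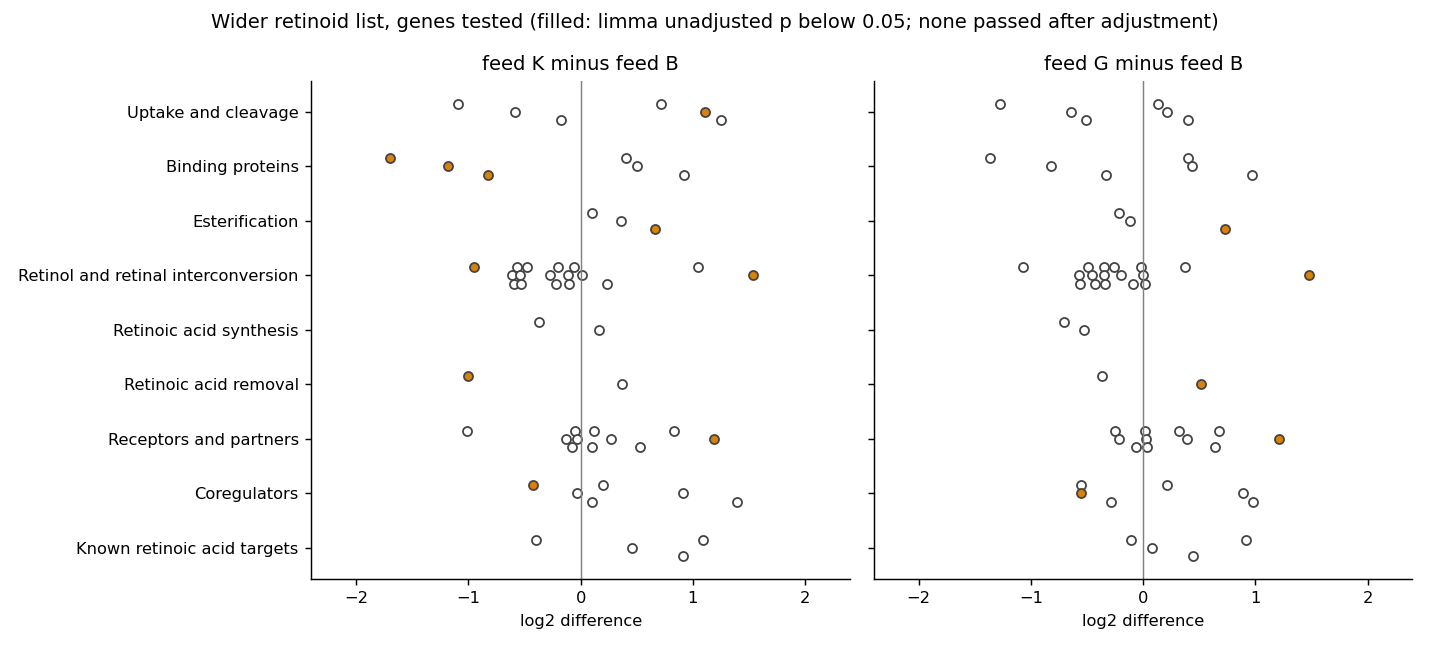
Log2 difference from feed B (horizontal axis) of the 57 tested genes of the wider retinoid list by role, with 1 point per gene, for feed K on the left and feed G on the right. Filled points have an unadjusted limma p below 0.05 (10 genes on the left and 5 on the right), and none passed after adjustment. Rdh13, detected on no array of feed B, is among the filled points on both sides.

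Close paralogs of the members were examined for the same arrays. Aldh1a7, a near copy of Aldh1a1 in sequence, was detected on all 9 arrays, with mean log2 signals of 10.96, 11.13 and 10.26 on feeds B, K and G. Whether the probes of Aldh1a1 and Aldh1a7 take up each other's RNA was not tested. Aldh1a2, the retinal dehydrogenase known from lamina propria and mesenteric cells, was detected on 7 arrays, with means of 8.53, 8.16 and 8.00. Rarg was detected on none, so that Rara was the 1 retinoic acid receptor gene of the 3 whose probes stood above background here. Rxrb was detected on all arrays and had means of 10.66, 10.61 and 10.68, with an SD of 0.14 over the 9 mice, and Rxra likewise had the smallest SD of the 5 detected members.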

How the data were processed

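Total RNA of 9 jejunum samples was measured on 1 array each, with 3 mice per feed as labelled. The authors deposited scanner tables with signal intensity, corrected for background and spatially normalized, its SD, a signal-to-noise ratio score and a quality flag, and a series table of assay-normalized signal in linear units, used as an alternative. RMA is named in the submitters' processing notes. Flags above 5000 marked failed spots, which were not used. Signals were quantile normalized (arithmetic mean), brought to the log2 scale and averaged where a symbol had several probes. Genes detected on at least 3 arrays entered limma (version 3.58.1, lmFit and eBayes, in R 4.3.3) and adjusted after Benjamini and Hochberg over all 9650 genes, with a threshold of 0.05. Correlations have exact permutation p-values (two-sided, 362880 pairings). Other steps used scipy 1.17.1, pandas 2.3.3 and numpy 2.4.6 under Python 3.11.15. The number of arrays limits the precision. The labels name Trizol and RNeasy for RNA isolation and the methods Qiazol and miRNeasy. The fits were tested on simulated data. The members and lists were chosen with earlier results of these data known. Named were all members with their probes, the 10 genes of the wider list with the smallest F test p (1 of them is not reported here), 4 paralogs, the 3 genes most like each detected member and marker genes. Leaving out the 3 mice of highest Fabp6 was chosen after seeing the data. Mice of a feed are separate animals. Current symbols, positions and promoter sequences are from RefSeq (GRCm38.p6), in which all 7 genes had a promoter entry.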

Additional observations from a re-analysis of the deposited data

Results flagged for a closer look

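Of 12 genes examined for a mouse standing apart (the 5 detected members and the genes named from the wider list that were detected on all arrays), Dgat2 had 1 such value. Mouse 7 of feed B was the lowest of 9 mice, and its gap to the next mouse was 0.561 of the whole range, above the 95% critical value of Dixon's test for 9 values. Its log2 signal was 12.80, compared with 13.61 to 14.24 in the other mice. About 0.6 of 12 genes would be expected to pass this limit by chance. Without this mouse the log2 difference of Dgat2 from feed B was 0.36 on feed K, compared with 0.66 over all mice, and 0.43 on feed G, compared with 0.73.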

How the results depend on the processing

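No member and no gene of the wider list passed the adjusted threshold under any alternative, in the F test or in any pair, and no correlation between members did. The median SD of the 5 members was 0.48, 0.36 to 0.51 when each mouse was left out, and 0.36 without the 3 mice of high Fabp6. With median scaling, Lrat turned to 0.20 for G minus B and Rxra to 0.12 for G minus K. Rara turned to 0.17 for K minus B, 0.25 for G minus B and 0.080 for G minus K. On that scale the median gene was shifted by 0.41 for K minus B, 0.53 for G minus B and 0.11 for G minus K. The shifts were 0.21, 0.30 and 0.07 in the series table. In the series table, Rara was 0.034 for G minus B and 0.12 for G minus K. With the brightest probe, Rxra was 0.0089 for G minus K. Without the 3 mice of high Fabp6, Rbp2 was -0.21 for K minus B and -0.67 for G minus B, and Rxra -0.0087 for G minus B. Leaving out 1 mouse at a time, Rbp2 ranged from -0.17 to 0.55 for G minus B, and for G minus K Aldh1a1 ranged from -0.17 to 0.43, Rara from -0.18 to 0.017 and Rxra from -0.13 to 0.17. The cause was not tested. The unadjusted p of Lrat for K minus B was above 0.05 with median scaling, with ordinary analysis of variance, without mouse 7 or 8 of feed B, without mouse 1 of feed K and without the 3 mice of high Fabp6, and below it under the other alternatives. Members that went below 0.05 were Rbp2 for K minus B (median scaling, series table and without mouse 8 of feed B, the last also in the F test), Rara for K minus B, G minus B and the F test (without mouse 10 of feed B), Rxra for G minus B (median scaling), Lrat for G minus K (series table) and, among genes that failed the filter on dim genes, Rarb for G minus B (no such filter). All other differences of members kept their direction. Median scaling raised the genes with an unadjusted p below 0.05 from 518 to 1077 in the F test, from 609 to 1230 for K minus B and from 554 to 1798 for G minus B. The counts in the same order were 1167, 1226 and 1253 without the 3 mice of high Fabp6, where 10 instead of 5 of the 57 wider-list genes were below 0.05 in the F test, and 971, 1102 and 1057 without mouse 10 of feed B. Without mouse 10 of feed B, 10 genes of all tested passed after adjustment for K minus B and 3 for G minus B, none of them a member or a wider-list gene. No paired analysis was possible because the feeds share fewer than 2 mouse numbers. A scan batch as a block was not run, since the tables name a single array folder. With 3 mice per feed and a signal-to-noise ratio down to 4.8, small differences in Lrat could not be resolved, and Bcmo1 and Rarb could not be compared.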
